A study of Oryza sativa Japonica Group with 12 samples.

Results

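The F1 rice hybrids ‘CH7/9’ and ‘CH8/9’ were set directly against each other in 4 arrays of a series of 12, chosen by their titles, with 2 arrays per hybrid. ‘CH7/9’ came from crossing ‘CH7’ with ‘CH9’ and ‘CH8/9’ from crossing ‘CH8’ with ‘CH9’, so that the hybrids shared the ‘CH9’ parent and differed in the other. All parents are temperate *japonica* varieties, ‘CH7’ being Aranghyangchalbyeo, ‘CH8’ Sanghaehyangheolua and ‘CH9’ Shinseonchalbyeo. Plants were grown in a greenhouse, and RNA of whole plants at tillering was hybridized to Affymetrix GeneChips. The methods describe each RNA as coming from an independent plant, and name more replicates per line than the 2 arrays used here, so p-values measure the spread between these plants and their arrays.

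Hybrid weakness is the poor growth of a hybrid from parents that grow normally, and in rice it is known for short, chlorotic plants. Green tissue depends on nuclear genes for chlorophyll synthesis, for the antenna and electron carriers of the thylakoid, and for Rubisco and the Calvin cycle that fixes carbon dioxide. Growing shoots depend on dividing and expanding cells, which use cyclins, kinesins and tubulins to divide and cellulose synthases, expansins and glucanases to build and loosen walls. Both hybrids are weak ones according to the study. The direct comparison asks at which genes they differ, with ‘CH9’ as their common parent.

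Of 77 genes of photosynthesis and chlorophyll lists, 20 were called (26.0%, beside 1.88% of all genes), all higher in ‘CH7/9’, from 2.00-fold to 6.51-fold. In ‘CH8/9’, 7 of 9 called wall genes and both called genes of 27 aquaporins were higher. The 7 wall genes came from lists with 4.17% and 6.02% called lower in ‘CH7/9’, beside 0.99% of all genes. The beta-tubulin gene *TUB4* and the kinesin *KIN14H* were also higher in ‘CH8/9’. They were the only calls among 186 cell division genes (1.08%), a share that did not stand out. A probe set was called where the adjusted p over all 54922 probe sets was at most 0.05 and the fold change at least 2. By this rule 673 probe sets were higher in ‘CH7/9’ and 326 lower, or 1.82% of all in both directions. Taken as genes, each represented by its brightest probe set, 448 of 23837 were higher (1.88%) and 236 lower (0.99%), and the median difference over all genes was 0.05 on the log2 scale. Among the 2747 genes with a name, 62 were higher (2.26%) and 30 lower (1.09%).

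The deposited values were intensities from 1.58 to 4035, with array medians of 10.9 to 12.4, and all levels below are log2 intensities. Across probe sets, replicate arrays correlated at 0.968 for ‘CH7/9’ and at 0.981 for ‘CH8/9’. ‘CH7/9’ replicate 2 stood apart, with its closest array of another line at 0.961, whereas replicate 1 reached 0.983 with ‘CH7’ replicate 1. Leaving out ‘CH7/9’ replicate 2 reduced the calls to 58 and leaving out ‘CH7/9’ replicate 1 raised them to 2509. The calls numbered 110 without ‘CH8/9’ replicate 1, 289 without ‘CH8/9’ replicate 2 and 1546 (835 higher and 711 lower) without the ‘CH7/8’ arrays, which entered only through the spread. All 999 called probe sets kept their direction in each of these fits, but the same arrays had chosen them by a difference of at least 2-fold. Without ‘CH7/8’ the difference itself cannot change.

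At each of the 10 named genes with the largest called excess in ‘CH7/9’, both ‘CH7/9’ arrays lay above all 6 parent arrays. At 3 of them (*ADI1*, *APX8* and *GLN2*) both ‘CH8/9’ arrays also lay below. Over all named genes these shares were 6.95% and, for both conditions, 1.13%. High ‘CH7/9’ and low ‘CH8/9’ levels are part of how the 10 genes were chosen. *PDX12*, of a family that makes vitamin B6, stood at 9.06 and 8.47 in ‘CH7/9’ and at 4.86 and 5.43 in ‘CH8/9’. The difference was 3.62 ± 0.75 (SE, adjusted p = 0.0465), a 12.3-fold change. *GLN2*, the chloroplast glutamine synthetase that recaptures ammonium, reached 9.46 and 9.51 in ‘CH7/9’ against 6.96 and 7.15 in ‘CH8/9’, a difference of 2.43 ± 0.37 (adjusted p = 0.0179).

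**Figure D1:**
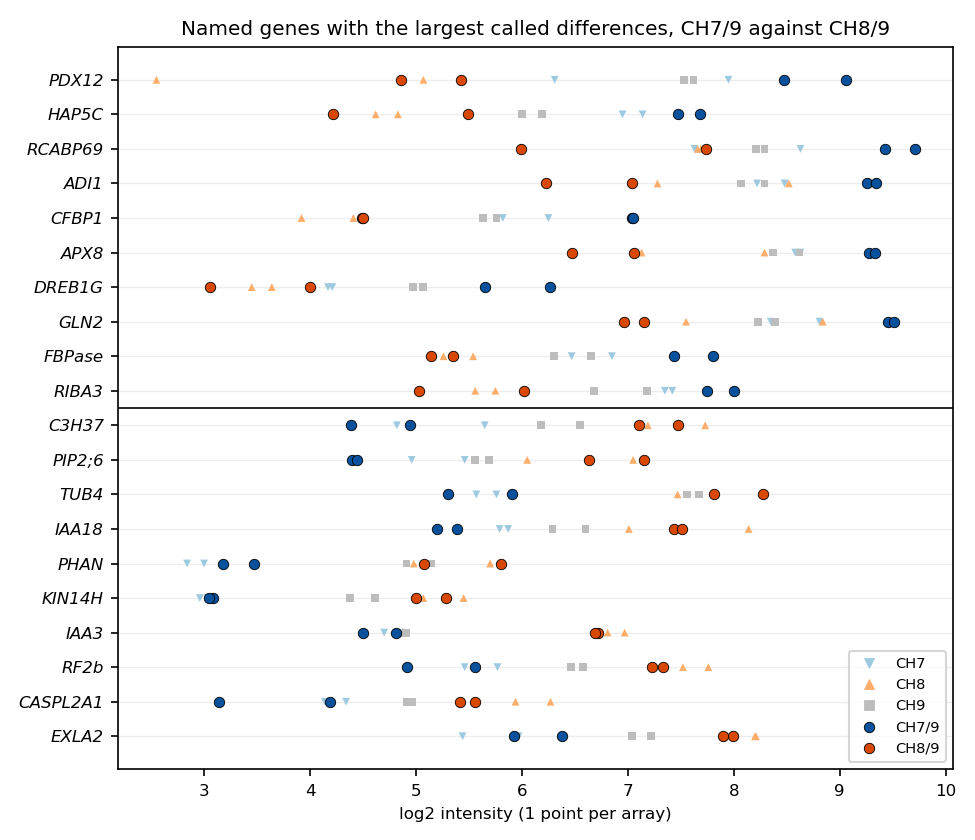
Log2 intensity of the 10 named genes with the largest called excess in ‘CH7/9’ (above the line) and the 10 with the largest called excess in ‘CH8/9’ (below it), 1 point per array, with the parents as small marks. The ‘CH7/9’ and ‘CH8/9’ points do not overlap for any of the 20 genes, which follows from choosing them by this difference. Over all genes both ‘CH7/9’ arrays were above both ‘CH8/9’ arrays at 30.6% and below them at 28.3%.

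*CFBP1*, a cytosolic fructose-1,6-bisphosphatase of sucrose synthesis, stood at 7.04 and 7.05 in ‘CH7/9’ and at 4.49 and 4.50 in ‘CH8/9’, with a difference of 2.55 ± 0.21 (adjusted p = 0.00303). *FBPase*, another fructose-1,6-bisphosphatase gene, was at 7.44 and 7.80 against 5.14 and 5.35, which is 5.17-fold (adjusted p = 0.00483). *APX8*, an ascorbate peroxidase that removes hydrogen peroxide, was at 9.28 and 9.33 against 6.47 and 7.06, which is 5.80-fold (adjusted p = 0.0179). The gap between the arrays of the hybrids at these genes is part of how they were chosen.

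The antenna gene *RCABP69*, for a chlorophyll a/b-binding protein, was 6.51-fold higher in ‘CH7/9’ (9.43 and 9.71 against 5.99 and 7.74, adjusted p = 0.0343). Its ‘CH8/9’ arrays lay 1.75 apart, the widest gap within that hybrid among these 10 genes. A gene that RefSeq lists both as *ADI1* and as ferredoxin was at 9.26 and 9.34 in ‘CH7/9’ and at 6.23 and 7.04 in ‘CH8/9’ (2.66 ± 0.41, adjusted p = 0.0182). *RIBA3*, of riboflavin synthesis, differed by 2.34 ± 0.33 (7.75 and 8.00 against 5.03 and 6.02, adjusted p = 0.0132).

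Regulators of transcription were on the list as well. *HAP5C*, a subunit of the CCAAT-binding factor NF-Y, was at 7.47 and 7.68 in ‘CH7/9’ and at 4.22 and 5.49 in ‘CH8/9’, a difference of 2.72 ± 0.37 (adjusted p = 0.0121). *DREB1G*, of the dehydration-response factor family, was at 5.65 and 6.27 against 4.0 and 3.06, a difference of 2.43 ± 0.30 (adjusted p = 0.00927). The ‘CH7/9’ arrays exceeded every parent array for both genes.

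Among the 10 named genes with the largest called deficit in ‘CH7/9’ were a tubulin and a pair of auxin genes. *TUB4*, a beta-tubulin gene, stood at 5.91 and 5.30 in ‘CH7/9’ and at 7.81 and 8.28 in ‘CH8/9’, so ‘CH7/9’ was lower by 5.43-fold (-2.44 ± 0.38, adjusted p = 0.0184). *IAA3* and *IAA18* encode Aux/IAA repressors of the auxin response. *IAA3* was at 4.81 and 4.50 in ‘CH7/9’ against 6.72 and 6.69 in ‘CH8/9’ (-2.05 ± 0.19, adjusted p = 0.00372), and *IAA18* at 5.39 and 5.2 against 7.44 and 7.51 (-2.18 ± 0.32, adjusted p = 0.0153).

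*PIP2;6*, a plasma membrane aquaporin, was at 4.40 and 4.44 in ‘CH7/9’ and at 6.63 and 7.15 in ‘CH8/9’ (-2.47 ± 0.35, adjusted p = 0.0132). *EXLA2*, an expansin-like gene, was at 5.93 and 6.38 against 7.99 and 7.9 (-1.79 ± 0.25, adjusted p = 0.0141). *CASPL2A1*, of the family related to Casparian strip proteins, was at 4.19 and 3.14 against 5.42 and 5.56 (-1.82 ± 0.38, adjusted p = 0.0473).

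The remaining genes of this group were regulators and a motor protein. *C3H37*, a CCCH zinc finger gene, differed most, at 4.94 and 4.39 in ‘CH7/9’ against 7.11 and 7.47 in ‘CH8/9’ (-2.63 ± 0.34, adjusted p = 0.0107). *RF2b*, a bZIP factor, differed by -2.04 ± 0.26 (adjusted p = 0.00977) and *PHAN*, a MYB factor of leaf development, by -2.11 ± 0.31 (adjusted p = 0.0161). *KIN14H*, a kinesin, was at 3.08 and 3.05 against 5.0 and 5.28 (-2.07 ± 0.17, adjusted p = 0.00303). Its ‘CH7/9’ level was below the array medians of 3.55 and 3.64.

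The photosynthesis and chlorophyll lists held 77 measured genes, of which 20 were called higher in ‘CH7/9’ and none lower. That is 26.0% beside 1.88% of all genes. Another 22 had an unadjusted p under 0.05 in the same direction without being called, so that 42 did in all (54.5%, beside 13.1% of all genes), and 3 did in the other. The mean level over the 77 genes was 6.45 and 6.62 in the ‘CH7/9’ arrays and 5.81 and 5.96 in the ‘CH8/9’ arrays, while the parent arrays lay between 6.09 and 6.27. The hybrids thus stood on opposite sides of all 6 parent arrays. The calls rested on the replicates. Without ‘CH7/9’ replicate 2, or without ‘CH8/9’ replicate 1, all were lost except that of *CFBP1*, whose product belongs to sucrose synthesis. The median difference of 0.54 stayed between 0.50 and 0.68 when a hybrid array was left out.

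**Figure D2:**
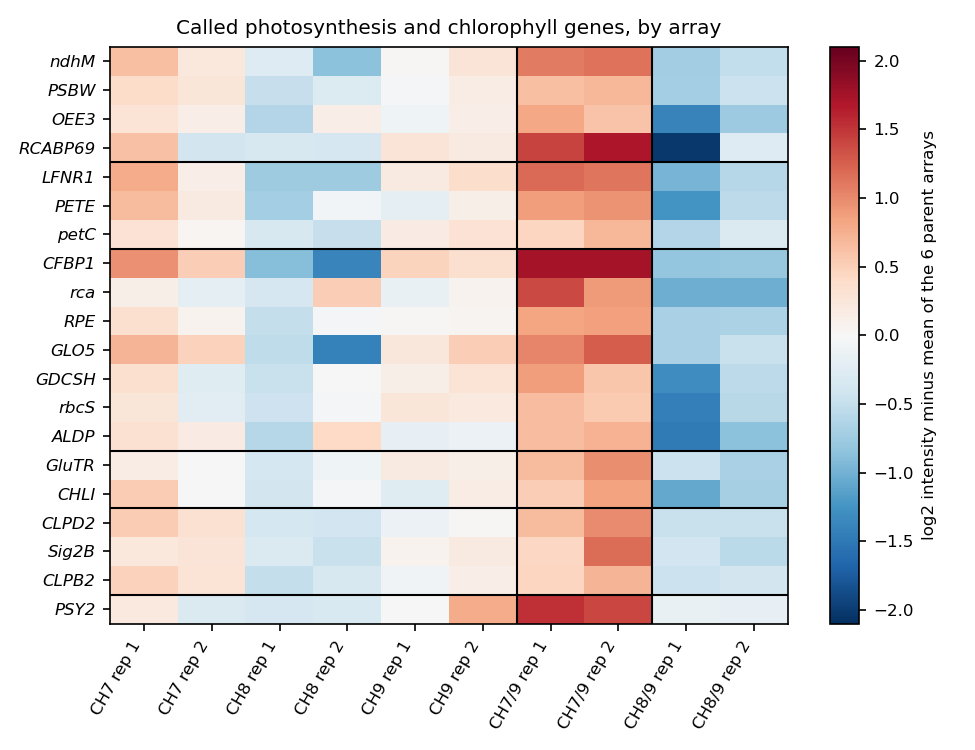
Log2 intensity of the 20 called photosynthesis and chlorophyll genes in each array, less the mean of the 6 parent arrays (colour scale), with lines between photosystem, electron transport, Calvin cycle, chlorophyll synthesis, chloroplast biogenesis and carotenoid genes. All 20 are above the parent mean in both ‘CH7/9’ arrays and below it in both ‘CH8/9’ arrays, but they were chosen by the difference between these hybrids.

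All 9 photosystem and antenna genes had a higher mean in ‘CH7/9’, beside 54.3% of all genes, with a median difference of 1.06. Of these 4 were called (44.4%, beside 1.88%). *OEE3*, of the oxygen-evolving complex, was at 8.27 and 8.06 in ‘CH7/9’ and at 6.07 and 6.70 in ‘CH8/9’ (3.43-fold, adjusted p = 0.0232). *ndhM*, a subunit of the chloroplast NDH complex of cyclic electron flow, was at 6.71 and 6.75 against 4.88 and 5.09 (3.36-fold, adjusted p = 0.0107). *PSBW*, a small subunit of photosystem II, was at 8.29 and 8.36 against 6.95 and 7.20 (2.38-fold, adjusted p = 0.0144), and the fourth was *RCABP69*. The smallest difference of the list was 0.27.

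Of 6 genes for electron carriers and the chloroplast ATP synthase, 3 were called higher in ‘CH7/9’. *LFNR1*, a leaf ferredoxin-NADP reductase that delivers electrons to NADP, was at 9.32 and 9.24 against 7.14 and 7.52 (1.95 ± 0.24, adjusted p = 0.00902). *PETE*, for plastocyanin, was at 8.05 and 8.12 against 5.92 and 6.63 (1.81 ± 0.29, adjusted p = 0.0215), and *petC*, the Rieske protein of the cytochrome b6f complex, at 8.79 and 9.03 against 7.72 and 8.03 (1.04 ± 0.18, adjusted p = 0.0254). *atpB*, listed for the ATP synthase, differed by -0.34 ± 0.20 (adjusted p = 0.356).

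The Calvin cycle and photorespiration list had the largest median of these lists, 1.40 over 14 genes, and 7 members were called, among them *CFBP1*, whose product belongs to sucrose synthesis. Rubisco activase, *rca*, keeps the carbon-fixing enzyme Rubisco active. It was at 9.26 and 8.76 in ‘CH7/9’ and at 6.85 and 6.84 in ‘CH8/9’ (2.17 ± 0.29, adjusted p = 0.0122). In the parents *rca* was at 8.00 and 7.67 in ‘CH7’, 7.52 and 8.38 in ‘CH8’, and 7.71 and 7.94 in ‘CH9’, so ‘CH7/9’ lay above and ‘CH8/9’ below every parent array.

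*RPE*, ribulose-phosphate 3-epimerase, showed the same placement, at 8.62 and 8.65 in ‘CH7/9’, 7.11 and 7.12 in ‘CH8/9’, and between 7.29 and 8.13 in the parents (1.52 ± 0.21, adjusted p = 0.0128). *GLO5*, a glycolate oxidase of photorespiration, was at 9.52 and 9.76 against 7.81 and 8.02 (1.72 ± 0.27, adjusted p = 0.0187). Not every member moved this way. The glycolate oxidase gene *GLO3* had the most negative difference of the list, -1.42 ± 0.51 (adjusted p = 0.181), at 5.78 and 5.27 against 6.65 and 7.23. Aldolase and triose-phosphate isomerase genes of this list that may serve glycolysis had differences between -0.26 and 0.16.

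Chlorophyll synthesis had 2 called genes of 12 (16.7%, beside 1.88% of all genes), with a median difference of 0.97. An unadjusted p under 0.05 with a higher mean in ‘CH7/9’ was reached by 9 of the 12 (75.0%, beside 13.1%). *GluTR*, glutamyl-tRNA reductase, which starts tetrapyrrole synthesis, was at 8.31 and 8.63 in ‘CH7/9’ and at 7.19 and 6.96 in ‘CH8/9’ (1.39 ± 0.17, adjusted p = 0.00927). *CHLI*, a subunit of magnesium chelatase at the branch to chlorophyll, was at 7.03 and 7.35 against 5.44 and 5.81 (1.56 ± 0.27, adjusted p = 0.0256). The next, *CHLD* of the same enzyme and the protochlorophyllide reductase gene *PORB*, differed by 1.18 and 1.21, with adjusted p = 0.0529 and 0.068.

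By contrast, none of 5 genes of chlorophyll breakdown and senescence was called, and their median difference was -0.13. *SGR*, the stay-green gene of chlorophyll degradation, was at 5.28 and 5.99 in ‘CH7/9’ and at 6.58 and 5.42 in ‘CH8/9’, ranges that overlapped. *NYC1*, a chlorophyll b reductase, was at 8.85 and 9.04 against 9.21 and 8.88 and overlapped as well. None of these 5 had an unadjusted p under 0.05.

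Chloroplast biogenesis genes had a median difference of 0.53 over 21 members. Of these, 19 had the higher mean in ‘CH7/9’ (90.5%, beside 54.3% of all genes) and 3 were called (14.3%, beside 1.88%). The Clp chaperone genes *CLPD2* (7.53 and 7.87 against 6.40 and 6.40) and *CLPB2* (7.49 and 7.75 against 6.58 and 6.65) differed 2.46-fold and 2.00-fold (adjusted p = 0.0141 and 0.038). *Sig2B*, a sigma factor for plastid transcription, was at 6.09 and 6.83 against 5.25 and 5.09 (adjusted p = 0.0253). In carotenoid synthesis, *PSY2*, a phytoene synthase that commits isoprenoids to carotenoids, was the only called member of 10, at 7.19 and 7.07 against 5.5 and 5.48 (3.12-fold, adjusted p = 0.0404).

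Leaf markers moved with these genes. All 5 (*rca*, *rbcS*, *RBCS1*, *CAB1R* and *CAB2R*) had higher means in ‘CH7/9’, and their summed intensity was 1070 and 978 in ‘CH7/9’, 292 and 366 in ‘CH8/9’ and 491 to 751 in the parents. Each is also a member of the lists above, and the part of leaf content in the result was not tested. In whole plants fewer cells of a type and less RNA per cell cannot be told apart. Root markers were divided. Of 11, 9 had the higher mean in ‘CH7/9’ (81.8%, beside 54.3% of all genes), with a median difference of 0.31, and none was called. An unadjusted p under 0.05 was reached by 2 with a higher mean and 2 with a lower. Both ‘CH7/9’ arrays lay below all parent arrays at 3 of the 11 markers (27.3%, beside 3.64% of all genes). Their mean level was 4.55 and 5.03 in ‘CH7/9’ and 4.19 and 4.34 in ‘CH8/9’, which did not overlap, and their summed intensity was 805 and 1370 against 520 and 859, which did. The part of root content in the results was not tested. Of 18 endosperm markers 15 lay below the array median.

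**Figure D3:**
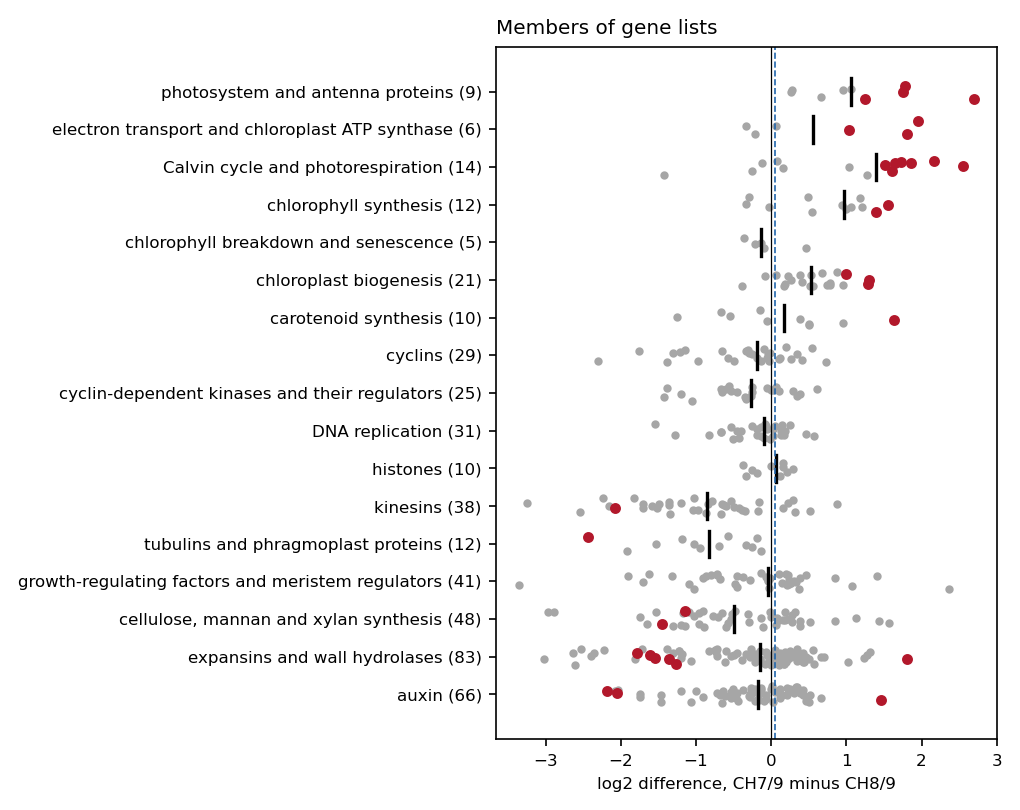
Log2 difference of each measured member, ‘CH7/9’ minus ‘CH8/9’, in 17 gene lists (member number in parentheses), with called members in red, list medians as black bars and the median of all genes (0.05) dashed. The median lies at 1.40 for the Calvin cycle and at -0.85 for kinesins.

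Cell division lists leaned the other way with few calls. Of 186 measured genes, 131 had a lower mean in ‘CH7/9’ (70.4%, beside 45.7% of all genes), the median difference was -0.29, and 45 had an unadjusted p under 0.05 with a lower mean (24.2%, beside 12.2%). Only *KIN14H* and *TUB4* were called, 1.08% beside 0.99% of all genes, so the share of calls did not stand out. In the fit without ‘CH7/8’, 14 of the 186 were called lower (7.53%, beside 2.36% of all genes) and 1 higher. The mean over all 186 was 4.39 and 4.49 in the ‘CH7/9’ arrays and 4.77 and 4.99 in the ‘CH8/9’ arrays. The parent arrays lay between 4.30 and 4.74, and the replicates of ‘CH7/8’ at 4.37 and 4.95.

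Kinesins, the motors that move along microtubules and build the spindle and phragmoplast, had the most negative median, -0.85 over 38 genes. In 29 of the 38 (76.3%) both ‘CH7/9’ arrays lay below both ‘CH8/9’ arrays, beside 28.3% of all genes. The mean level of the list was 3.84 and 4.0 in ‘CH7/9’ and 4.63 and 5.09 in ‘CH8/9’. Replicates of a line also lay far apart, at 4.0 and 5.12 in ‘CH7/8’ and 4.85 and 4.18 in ‘CH8’. Those of ‘CH7’ (3.85 and 3.74) and ‘CH9’ (4.38 and 4.21) were closer. Genes that vary together between plants are not separate observations. *KIN7D* was at 4.65 and 4.08 in ‘CH7/9’ and at 5.87 and 6.27 in ‘CH8/9’ (-1.70 ± 0.40, adjusted p = 0.0682), and *KIN8B* at 6.32 and 5.96 against 7.65 and 7.81 (-1.59 ± 0.41, adjusted p = 0.0868). An exception was *KIN14L*, at 7.73 and 8.07 against 6.82 and 7.24, whose difference of 0.87 ± 0.18 reached an adjusted p of 0.0464 but not 2-fold. The mean level of 14 of the 38 was below the array median. Without ‘CH7/8’, 6 kinesins were called lower.

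All 12 tubulin and phragmoplast genes had a lower mean in ‘CH7/9’, beside 45.7% of all genes. At all 12 both ‘CH7/9’ arrays lay below both ‘CH8/9’ arrays, beside 28.3% of all genes, although *TUB7* came within rounding (4.42 and 4.68 against 4.7 and 4.68). Beside *TUB4*, the beta-tubulin gene *TUB5* was at 5.97 and 5.14 against 7.28 and 7.67 (-1.92 ± 0.41, adjusted p = 0.0511) and *TUB6* at 3.84 and 3.86 against 4.94 and 5.81 (-1.53 ± 0.46, adjusted p = 0.125). *TUB1* differed by -0.95 ± 0.32 (adjusted p = 0.154). The median over the list was -0.82, and 6 members had an unadjusted p under 0.05.

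**Figure D4:**
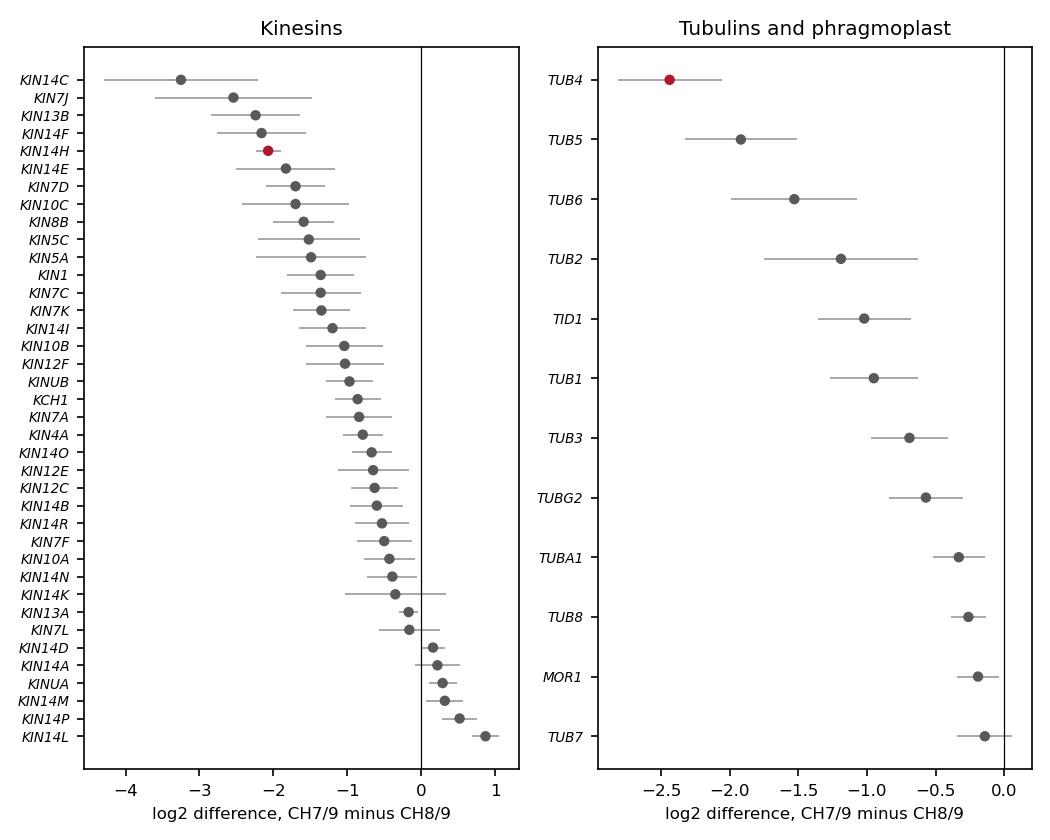
Log2 difference, ‘CH7/9’ minus ‘CH8/9’, with its standard error for each kinesin (left) and each tubulin or phragmoplast gene (right), called genes in red. *KIN14H* (-2.07) and *TUB4* (-2.44) are called, and all 12 genes on the right are below 0, beside 45.7% of all genes.

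Cyclins and their kinases showed no call. Among 29 cyclins the median was -0.19. The B-type cyclin *CYCB2-1*, active at mitosis, was at 4.28 and 4.50 in ‘CH7/9’ and at 5.77 and 5.77 in ‘CH8/9’ (-1.38 ± 0.38, adjusted p = 0.104), and the D-type cyclin *CYCD4-1*, which links growth signals to entry into the cycle, at 4.26 and 3.03 against 6.06 and 5.83 (-2.30 ± 0.70, adjusted p = 0.13). Both were called without ‘CH7/8’. Among 25 cyclin-dependent kinases and regulators the median was -0.27, and the inhibitor gene *KRP5* had the smallest p, at 6.30 and 5.96 against 7.61 and 7.06 (adjusted p = 0.0787).

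DNA replication genes (median -0.09 over 31) and histones (0.06 over 10) differed little as groups, with no call in either. *FEN1A*, a flap endonuclease of lagging-strand synthesis, was at 6.66 and 6.65 in ‘CH7/9’ and at 7.18 and 7.47 in ‘CH8/9’ (-0.67 ± 0.17, adjusted p = 0.0786). None of the 10 histone genes had an unadjusted p under 0.05. The 41 growth-regulating factors and meristem regulators had a median of -0.04 and no call. *GRF7*, a growth-regulating factor, showed the widest gap, at 3.56 and 2.40 against 6.19 and 6.46, with a large error (-3.35 ± 1.04, adjusted p = 0.134). *GRF5*, of the same family, was at 4.95 and 4.54 against 6.26 and 6.63 (-1.70 ± 0.44, adjusted p = 0.0878).

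Wall genes included 7 calls lower and 2 higher in ‘CH7/9’. *CESA8*, a cellulose synthase listed beside the mannan and xylan genes, was at 5.95 and 5.82 in ‘CH7/9’ and at 7.24 and 7.44 in ‘CH8/9’ (-1.45 ± 0.21, adjusted p = 0.0149), and the glucanase gene *GLU2* at 7.0 and 6.82 against 7.88 and 8.22 (-1.14 ± 0.16, adjusted p = 0.0141). They were the 2 called among 48 genes of cellulose, mannan and xylan synthesis (4.17%, beside 0.99% of all genes called lower), whose median was -0.50. *CSLA7*, of the mannan synthase family, had a wider difference that missed the threshold, at 3.94 and 3.0 against 6.36 and 6.52 (-2.97 ± 0.64, adjusted p = 0.0526).

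Of 83 expansins and wall hydrolases, 5 were called lower (6.02%, beside 0.99% of all genes) and 1 higher (1.2%, beside 1.88%), with a median of -0.15. A gene named *cellulase* was at 4.81 and 4.42 in ‘CH7/9’ and at 5.86 and 6.08 in ‘CH8/9’ (-1.36 ± 0.18, adjusted p = 0.0107). *PAE1* was at 6.44 and 6.25 against 7.77 and 8.01 (-1.55 ± 0.16, adjusted p = 0.00544), and the glucosidase gene *BGLU18* at 3.49 and 3.45 against 4.59 and 5.57 (adjusted p = 0.0235). The exception was the glucosidase gene *BGLU19*, at 4.18 and 5.21 against 3.14 and 2.61 (1.81 ± 0.37, adjusted p = 0.0442). The lignin and phenylpropanoid list leaned the other way, with a median of 0.39 and 27 of 37 genes above 0 (73.0%, beside 54.3% of all genes). Its only call (2.7%, beside 1.88% of all genes) was the laccase gene *LAC19*. It was at 2.81 and 2.69 against 1.57 and 1.31 (adjusted p = 0.00909), levels below the array median.

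Among hormone and transport genes the calls were scattered. Of 66 auxin genes, *IAA3* and *IAA18* were called lower and the carrier gene *PIN5a* higher in ‘CH7/9’ (6.34 and 6.58 against 4.82 and 5.18, adjusted p = 0.0211), or 3.03% lower and 1.52% higher beside 0.99% and 1.88% of all genes. An unadjusted p under 0.05 was reached by 16 with a lower mean (24.2%, beside 12.2%) and 2 with a higher (3.03%, beside 13.1%). Of 27 aquaporins, *PIP2;6* and *TIP1;1*, a vacuolar water channel, were called lower (7.41%, beside 0.99%), and the list as a whole was divided, with 12 genes above and 15 below 0. *TIP1;1* was at 6.47 and 6.42 against 8.08 and 8.26 (-1.72 ± 0.36, adjusted p = 0.0484). The phosphate exporter gene *PHO1;3* was higher in ‘CH7/9’, at 6.79 and 5.57 against 3.65 and 4.14 (2.29 ± 0.41, adjusted p = 0.0295), while *PHO1;2* of the same family was at 2.92 and 3.10 against 5.92 and 5.59 (-2.75 ± 0.59, adjusted p = 0.0524).

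Of 29 abscisic acid genes 1 was called (3.45%, beside 0.99%). *Hox22*, a homeodomain gene, was lower in ‘CH7/9’ (4.58 and 4.19 against 5.55 and 5.61, adjusted p = 0.033). The dehydrin gene *RAB21* was at 2.14 and 1.87 in ‘CH7/9’ and at 6.26 and 6.29 in ‘CH8/9’, a difference that was not called (-4.27 ± 1.05, adjusted p = 0.0786). The replicates of ‘CH7/8’ (2.54 and 6.29) and of ‘CH9’ (2.57 and 4.86) were far apart at this gene, and it was called in the fit without ‘CH7/8’. The chitinase genes *Cht11* (5.75 and 5.90 against 4.07 and 3.58) and *Cht2* (6.77 and 6.81 against 5.34 and 4.44) were called higher in ‘CH7/9’, with adjusted p = 0.024 and 0.0295, which is 2 of 15 pathogenesis-related genes (13.3%, beside 1.88% of all genes). *CYP71Z6*, a cytochrome P450 of diterpenoid phytoalexin synthesis, was the only call of its list (5.26%, beside 1.88% of all genes). It was at 4.07 and 4.26 against 3.31 and 2.79 (adjusted p = 0.0497). Of the 19 genes of that list 18 had the higher mean in ‘CH7/9’ (94.7%, beside 54.3% of all genes), with a median of 0.51. Without ‘CH7/9’ replicate 2 this was 11, with a median of 0.04. The mean level of 15 of the 19 lay below the array median.

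Carbon and nitrogen genes added only 3 calls, all higher in ‘CH7/9’. *GLN2* was the only called gene among 23 of nitrogen assimilation (4.35%, beside 1.88% of all genes). The sucrose and starch list had 2 calls (3.85%) and a median of 0.12, with 59.6% of its genes above 0, beside 54.3% of all genes. Of 52 sucrose and starch genes, *SPP1*, a sucrose-phosphate phosphatase, was at 6.39 and 6.45 in ‘CH7/9’ against 4.98 and 5.6 in ‘CH8/9’ (2.18-fold, adjusted p = 0.0293), and *CIN4*, a cell wall invertase, at 4.69 and 4.40 against 2.70 and 3.14 (3.10-fold, adjusted p = 0.0385). *SUS1*, a sucrose synthase, was at 6.08 and 4.99 against 7.32 and 7.68 (-1.96 ± 0.48, adjusted p = 0.0748).

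Genes known only by a locus code included wide differences too. *LOC9271826* was at 5.12 and 5.12 in ‘CH7/9’ and at 1.63 and 1.53 in ‘CH8/9’ (adjusted p = 0.000274), and *LOC4331350* at 5.79 and 5.85 against 2.78 and 2.73 (adjusted p = 0.000274). With the ‘CH8/9’ levels below the array median and no detection calls, the size of these differences is uncertain. Both were high in ‘CH7’ (5.97 or more) and below the array median in ‘CH8’ and ‘CH9’ (2.80 or less). *LOC4348979* was different in this respect, at 7.64 and 6.99 in ‘CH7/9’ against 3.56 and 4.55 in ‘CH8/9’ (adjusted p = 0.0144), above all parent arrays, which reached 6.0. In the other direction *LOC4349224* (a difference of -4.11, adjusted p = 0.0312), *LOC4339527* (a difference of -3.81, adjusted p = 0.0223) and *LOC4327631* (a difference of -3.66, adjusted p = 0.0287) were lower in ‘CH7/9’, with ‘CH8’ high and ‘CH7’ low at each. The ‘CH7/9’ arrays of *LOC4349224* (2.74 and 3.41) were below the array median as well.

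Whether the hybrids differed as their unshared parents do was read from the ‘CH7’ and ‘CH8’ arrays, which are other arrays than those of the hybrids. At the 999 probe sets called between the hybrids, ‘CH7’ minus ‘CH8’ had the same sign at 92.2%, beside 60.4% of all probe sets. The parents were themselves called, with the same sign, at 211 of the 326 probe sets lower in ‘CH7/9’ (64.7%) and at 161 of the 673 higher (23.9%), beside 3.69% of all probe sets called between the parents. The median parent difference was -1.75 at the lower set, equal to that of the hybrids there, and 0.69 at the higher set, where the hybrids had 1.48. Both comparisons used the same estimate of spread per probe set, so a probe set with little spread could pass both.

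**Figure D5:**
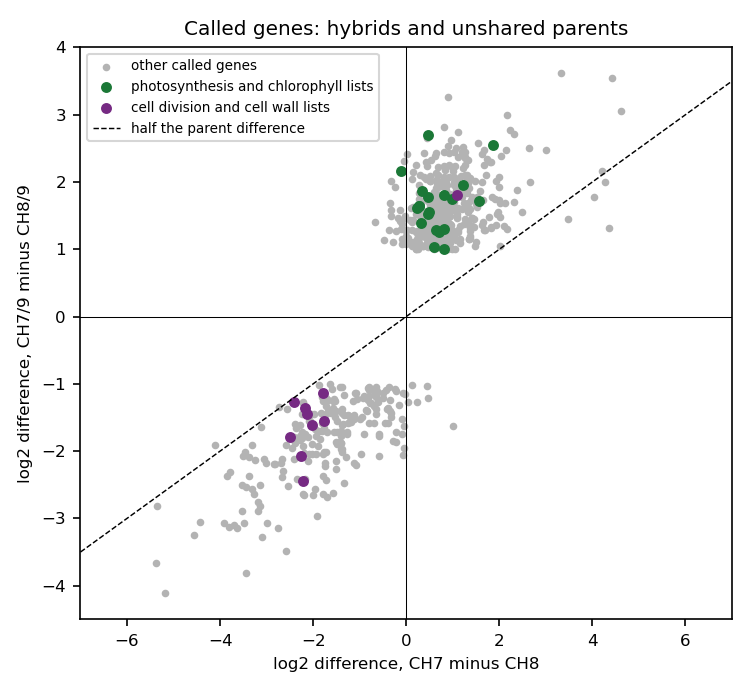
Log2 difference between the hybrids against that between their unshared parents for the called genes, with members of the photosynthesis and chlorophyll lists in green and of the cell division and wall lists in purple. On the dashed line both hybrids are equally far from their mid-parents. Most green points have a parent difference under 1, and the purple points below 0 have parent differences of -1.76 or beyond.

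Named genes showed the same contrast. Of the 30 called lower in ‘CH7/9’, 24 were also called lower in ‘CH7’ than in ‘CH8’, beside 4.08% of all named genes, whereas 12 of the 62 called higher were called higher in ‘CH7’, beside 2.07%. Whether these shares differ was not tested as such. *EXLA2* was at 5.44 and 5.97 in ‘CH7’ and at 8.21 and 8.20 in ‘CH8’, a parent difference of -2.50 (adjusted p = 0.0017) beside -1.79 in the hybrids. *IAA3* had -2.1 in the parents (adjusted p = 0.000968) and -2.05 in the hybrids, with ‘CH9’ at 4.86 and 4.91, near ‘CH7’. *GLN2* had a parent difference of 0.38 (adjusted p = 0.643) beside 2.43 in the hybrids, and *rca* -0.12 (adjusted p = 0.889) beside 2.17. Single genes went the other way in both sets. *CFBP1*, 1 of the 12, had 1.87 in the parents (adjusted p = 0.00279) beside 2.55. *PIP2;6*, called lower in ‘CH7/9’, was not called in the parents (-1.34, adjusted p = 0.0645, beside -2.47).

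The position against the parents was counted with no test, since the hybrid arrays also chose these genes. Of the 62 named genes called higher in ‘CH7/9’, 53 had both ‘CH7/9’ arrays above all 6 parent arrays and 24 had both ‘CH8/9’ arrays below them, with 20 meeting both conditions. Over all named genes these shares were 6.95%, 5.42% and 1.13%. Of the 30 called lower, 6 had both ‘CH7/9’ arrays below all parent arrays (3.13% of named genes) and 2 had both ‘CH8/9’ arrays above them (7.83%). In the photosynthesis and chlorophyll lists, called or not, ‘CH7/9’ was above all parent arrays at 29 of 77 genes (37.7%, beside 6.66% of all genes) and ‘CH8/9’ below them at 15 (19.5%, beside 4.8%). In the cell division lists ‘CH8/9’ was above all parent arrays at 28 of 186 genes (15.1%, beside 7.56% of all genes).

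The difference itself was tested as the deviation of ‘CH7/9’ from its mid-parent minus that of ‘CH8/9’, taking as mid-parent the average log2 level of both parents, so that the ‘CH9’ term cancels. Only 2 probe sets were called, *LOC9270219* and *LOC4341142*, 0.00364% of all, and no named gene, although 7054 of the 54922 (12.8%) had an unadjusted p under 0.05. For *rca* the difference in deviation was 2.22 ± 0.33 (adjusted p = 0.11) and for *GLN2* 2.24 ± 0.42 (adjusted p = 0.145). For *EXLA2* it was -0.54 ± 0.28 (adjusted p = 0.437) and for *CESA8* -0.39 ± 0.23 (adjusted p = 0.478). The count of 2 was unstable, reaching 624 without ‘CH7/9’ replicate 1 and 59 without ‘CH8’ replicate 1.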

How the data were processed

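Expression was measured on 12 Affymetrix arrays of whole rice plants at tillering. The authors deposited 1 table of intensity values for 54922 probe sets on a linear scale. The methods give RMA, with background subtraction and quantile normalization, but the submitters' processing notes give MAS5, and the values do not settle which was used. No detection calls were used. The log2 of the intensities was taken without a pseudocount or further normalization. The number of arrays limits the precision.

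Genes came from the platform annotation and RefSeq symbols and synonyms. Of the probe sets, 24080 had 1 gene, 95 had several (not named) and 30747 had none listed. The brightest probe set stood for a gene. Gene families with near-identical members may share signal.

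Means per line were fitted over all 12 arrays with limma 3.58.1 in R 4.3.3 and eBayes, and p-values were adjusted by Benjamini-Hochberg over all probe sets. Calls needed a 2-fold difference and an adjusted p of 0.05 or less, after the thresholds in the methods. The methods' SAM was not run, since 2 arrays against 2 allow too few permutations. Simulated arrays in which known genes were changed served to test the code.

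Named were the 10 highest and 10 lowest called genes with a name, the 3 highest and 3 lowest with only a code, up to 4 members of each list, called first and then by moderated t, and named genes called for the deviation from the mid-parent. *GRF7*, *SUS1*, *GLO3*, *TUB7*, *BGLU19*, the leaf markers and the triose genes were added after their values were seen. The comparison, members and lists were chosen with earlier results of these data known, and members with a misleading alias were taken out after values were seen. Alternatives were other normalizations, pseudocounts, fold thresholds, spread models, sets of lines, the replicate number as a block and leaving out each array.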

Additional observations from a re-analysis of the deposited data

Results flagged for a closer look

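At *LOC9270219* and *LOC4341142* the hybrids differed in their deviation from the mid-parent, by -2.93 ± 0.21 (adjusted p = 0.00826) and -2.35 ± 0.17 (adjusted p = 0.00826) on the log2 scale. *LOC9270219* was at 2.22 and 1.91 in ‘CH8’ and between 8.58 and 8.96 in ‘CH7’ and ‘CH9’, while ‘CH7/9’ was at 8.69 and 8.57 and ‘CH8/9’ at 8.23 and 8.16. *LOC4341142* was at 2.25 and 2.23 in ‘CH8’ and between 7.19 and 7.36 in ‘CH7’ and ‘CH9’, while ‘CH7/9’ was at 6.94 and 6.55 and ‘CH8/9’ at 6.54 and 6.53. At both genes the hybrids lay close together (differences of 0.44 and 0.21, neither called) although ‘CH8’ was far below ‘CH7’ and ‘CH9’ and below the array median. With parents so far apart, the average of log2 levels lies well below the average of the intensities. The deviation of ‘CH8/9’ thus depends on the scale, and a mid-parent of the intensities was not tested. Groups of 2 arrays are too small for a check of single outlying samples.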

How the results depend on the processing

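The calls were sensitive to the estimate of spread. Against 999 called probe sets (92 with a named gene, 2 for the deviation from the mid-parent), a pseudocount of 50 gave 260 (28 and 0), array weights 310 (35), least squares without eBayes 117 (12 and 0) and the fit without ‘CH7/8’ 1546 (158), of which 54.0% were higher in ‘CH7/9’ beside 67.4% in the main result. A 3-fold threshold gave 460, and a spread that depends on the mean gave 4 for the deviation. Fitted on the 4 hybrid arrays alone, 756 were called, 37.7% of them higher. Leaving out 1 array gave 58 to 2509 probe sets, 3 to 158 named genes and 0 to 624 for the deviation. For the photosynthesis and chlorophyll lists, leaving out 1 hybrid array gave 1 to 20 members called and medians of 0.50 to 0.68, and for the cell division lists 1 to 8 and -0.37 to -0.16. The cell division lists had 15 calls without ‘CH7/8’, a setting chosen after seeing the data, and 5 where the probe sets of a gene were averaged, against 2. All 999 probe sets kept their direction in every setting that tested them, but the same arrays had chosen them. Of the 20 named genes with the largest differences, *CFBP1* and *IAA3* were called in all 23 alternatives run for them, *PDX12* in 13 and *CASPL2A1* in 8. Median centring and quantile normalization changed the median of all probe sets from 0.115 to 0.069 and 0.029 and turned no call.

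Replicate numbers are not stated to pair plants, and replicate differences of the hybrids correlated at -0.173. With the replicate number as a block 796 probe sets were called, 71 with a named gene and 2 for the deviation, and with the ‘CH8/9’ numbers crossed, a pairing added after seeing the data, 779. SAM was not run. With 2 arrays per line and no detection calls, low levels such as those of 14 kinesins below the array median are poorly resolved.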
